A study of Rattus norvegicus with 6 samples.

Results

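The genes described here are 10 surface proteins used to recognise mesenchymal stem cells: Thy1 (CD90), Nt5e (CD73), Eng (endoglin, CD105), Cd44, Cd34, Pdgfra, Pdgfrb, Alcam (CD166), Vcam1 (CD106) and Mcam (CD146). They were chosen by name, and a probe was assigned to one of them when its RefSeq accession carried that rat symbol. All 10 were found, on 13 probes, among 15443 named genes on the array, and the brightest probe of a gene stands for it. RNA of Sprague Dawley rats aged 13 weeks was hybridised to 6 one-colour Agilent arrays in 5 groups. Adipose-derived stem cells (ADSCs) are the adherent stromal cells grown from fat, and they were profiled after 14 days of culture, once labelled with the iodine-tagged fatty ester 124I-HIB (1 array) and once unlabelled (1 array). Heart tissue was profiled at 21 days: infarcted myocardium injected with 124I-HIB-labelled ADSCs ("treated", 2 arrays, numbered 1 and 3), infarcted myocardium injected with PBS buffer (1 array) and myocardium of a sham-operated rat (1 array). The labels count the 21 days from the sham operation for all 4 tissue arrays, do not say which part of the heart was sampled, and do not say that the treated pair came from separate animals or that the cells came from more than 1 culture. With 1 array in 4 of the 5 groups, the number of arrays limits the precision of every comparison. The p-values cover only the scatter among these 6 arrays, part of which may be technical.

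Mesenchymal stromal cells are recognised by what they carry on the surface and by what they lack. In human cultures the accepted panel asks for THY1, NT5E and ENG, and for the absence of the leukocyte antigen CD45 (gene Ptprc), CD34, CD14 and class II histocompatibility molecules. Freshly isolated adipose stromal cells, unlike marrow cells, often carry CD34 and lose it in culture. PDGFRA and PDGFRB are receptor tyrosine kinases that mark fibroblasts and mural cells of the heart, and MCAM is found on endothelium and pericytes, so none of these genes belongs to stem cells alone.

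The sequences upstream of 4 members are shown because these genes carried the differences described below: Pdgfra and Cd44 had much higher signal in the cells, and Alcam and Vcam1 differed most between the tissue arrays. RefSeq (assembly GRCr8) gave a promoter entry for 7 of the 10 members, all but Thy1, Pdgfrb and Mcam, and the 250 bases before the annotated start are printed 5′ to 3′ on the gene's strand. Capitals mark matches, on either strand, to 5 motifs. The TATA box was searched as TATAAA. The GC box was searched as GGGCGG. The third motif, CCAAT, was searched by those letters. The AP-1 motif was searched as TGANTCA, and the NF-kB motif by its usual consensus. The windows are chr14:33408517-33408766 (minus strand) for Pdgfra, chr3:109699425-109699674 (minus strand) for Cd44, chr11:61805207-61805456 (plus strand) for Alcam and chr2:206742784-206743033 (minus strand) for Vcam1.
Pdgfra: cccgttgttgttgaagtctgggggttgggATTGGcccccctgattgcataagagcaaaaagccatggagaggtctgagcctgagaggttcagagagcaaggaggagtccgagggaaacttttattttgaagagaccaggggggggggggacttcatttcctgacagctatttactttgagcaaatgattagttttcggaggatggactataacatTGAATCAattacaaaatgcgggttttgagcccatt
Cd44: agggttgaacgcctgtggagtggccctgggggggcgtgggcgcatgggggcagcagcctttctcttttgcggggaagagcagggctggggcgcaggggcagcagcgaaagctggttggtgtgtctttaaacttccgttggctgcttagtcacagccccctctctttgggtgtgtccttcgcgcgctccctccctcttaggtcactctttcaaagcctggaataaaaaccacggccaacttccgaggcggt
Alcam: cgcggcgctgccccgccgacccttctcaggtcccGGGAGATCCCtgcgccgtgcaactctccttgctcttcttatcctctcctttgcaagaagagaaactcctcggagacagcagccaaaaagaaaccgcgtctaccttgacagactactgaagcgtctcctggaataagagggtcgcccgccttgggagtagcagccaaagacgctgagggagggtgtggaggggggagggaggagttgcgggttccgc
Vcam1: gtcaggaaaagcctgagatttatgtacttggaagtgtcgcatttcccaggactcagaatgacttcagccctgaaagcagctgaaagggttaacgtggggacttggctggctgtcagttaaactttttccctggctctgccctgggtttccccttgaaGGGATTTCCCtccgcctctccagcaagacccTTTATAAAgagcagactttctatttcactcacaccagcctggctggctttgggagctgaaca
The Pdgfra window held 1 CCAAT match, and an AP-1 match that began 35 bases before the start. The Cd44 window held no match to any of the 5 motifs. The Alcam window held 1 NF-kB match that began 216 bases before the start, and the Vcam1 window held 1 that began 93 bases before it. Of the windows not shown, that of Eng also held 2 NF-kB matches, which overlap, and those of Nt5e and Cd34 held none. The Vcam1 window also held 2 TATA box matches, 1 on each strand, which overlap each other. Among all 33469 windows of this length, a TATA box match occurred in 12.9%, a GC box in 30.5%, a CCAAT box in 34.0%, an AP-1 motif in 6.34% and an NF-kB motif in 6.33%. A match describes letters only, and binding was not measured.

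Signal is given throughout as a level, the log2 of the processed spot signal minus the log2 of the array's own 75th percentile, so that 0 is the signal of the spot at that percentile. A level ranks arrays for 1 probe and cannot be set against the level of another probe. The 75th percentile was a signal of 2615 in labelled and 2360 in unlabelled cells, 1276 and 1058 in the treated pair, 1120 in PBS and 772 in sham tissue. Between 64.4% and 69.4% of probes were well above background on each array, and no spot was saturated. Marker genes of the tissue and of the cells were read beside the labels. Of all 21177 features tested by limma between cells and tissue, 32.9% passed as higher in the cells and 35.6% as lower. All 9 measured cardiomyocyte markers were lower in the cells, with Myh6, the alpha heavy chain of cardiac myosin, at least 72662-fold lower and not well above background there. Of 9 fibroblast markers tested, 6 passed the limma test as higher in the cells and 2 as lower, with Postn, periostin (log2 difference 4.73), and the collagens Col1a1 (4.36) and Col3a1 (2.60) among the higher ones. The largest difference of that list was in the other direction: Tcf21, a transcription factor of cardiac fibroblasts, was at least 53.3-fold lower in the cells and not well above background there. The other lower gene, chosen for mention after its values were seen, was Pi16 (-2.06). Of 11 haematopoietic markers tested, 10 were lower in the cells, including Ptprc (at least 50.2-fold lower) and the class II gene RT1-Da (at least 213-fold lower). The remaining one, Cd14, a lipopolysaccharide co-receptor that the panel expects to be absent, was higher in the cells by 2.36, and it was chosen for mention after its values were seen. All 10 macrophage markers and 3 of 4 tested adipocyte markers were lower in the cells, and Wt1 was the only 1 of 4 mesothelial markers to pass, at -0.91. The mesothelial markers Msln (3.86, limma adjusted p = 0.161) and Upk1b (4.25, adjusted p = 0.0999) were higher in the cells without passing. Both were well above background on both cell arrays, but on 2 and 1 of the 4 tissue arrays. The fourth, Krt19 (-2.00), was not well above background in the cells.

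**Figure D1:**
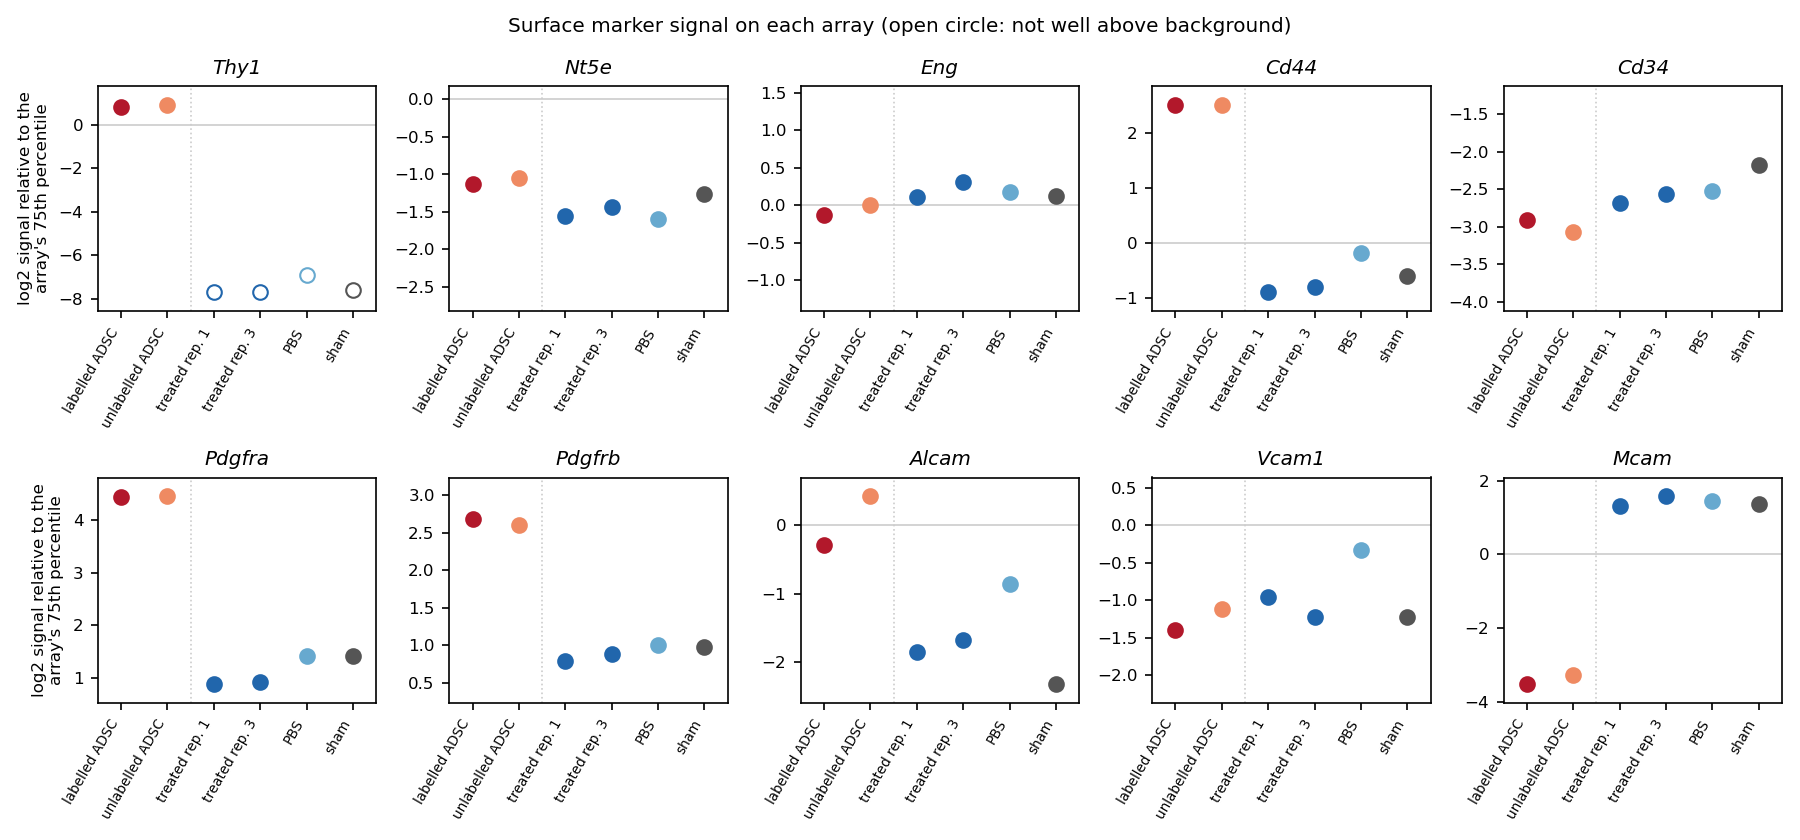
Level of each surface marker on each of the 6 arrays (y axis, log2 signal relative to the array's 75th percentile; one point per array; open circles are not well above background). Thy1, Nt5e, Cd44, Pdgfra, Pdgfrb and Alcam sit higher on both cell arrays than on every tissue array, and Eng, Cd34 and Mcam sit lower; the y range differs between panels.

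The comparison of the 2 cell arrays with the 4 tissue arrays asks which surface markers set the cultured cells apart from heart tissue. Of the tissue arrays, only the treated pair had received cells, and those cells were labelled. The fit pools labelled with unlabelled cells, and treated with PBS and sham tissue. Treatment differences within each class therefore enter the spread behind its standard errors and p-values. In bulk RNA, fewer cells of a type and less RNA per cell cannot be told apart. By limma (adjusted p under 0.05), 6 of the 10 members were higher in the cells and 2 were lower. The 6 include Thy1, which entered the test through the cell arrays alone. These 8 calls stand against a background of 68.5% of 21177 tested features called in this comparison, 32.9% higher and 35.6% lower, so the count itself does not set the members apart. Among the 9 members well above background on all 6 arrays, 3 were at least 2-fold above every tissue array in both cell arrays (Cd44, Pdgfra, Pdgfrb), where 14.1% of all such features were, and 1 (Mcam) was at least 2-fold below, where 16.0% were. Without the size condition, and over all 10 members, 6 had both cell arrays above every tissue array, Thy1 among them (background 37.6%). Another 3 had both below (background 40.0%), and Vcam1 overlapped. The median difference of the 9 members well above background on all 6 arrays was 0.37, against 0.03 over all measured features.

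**Figure D2:**
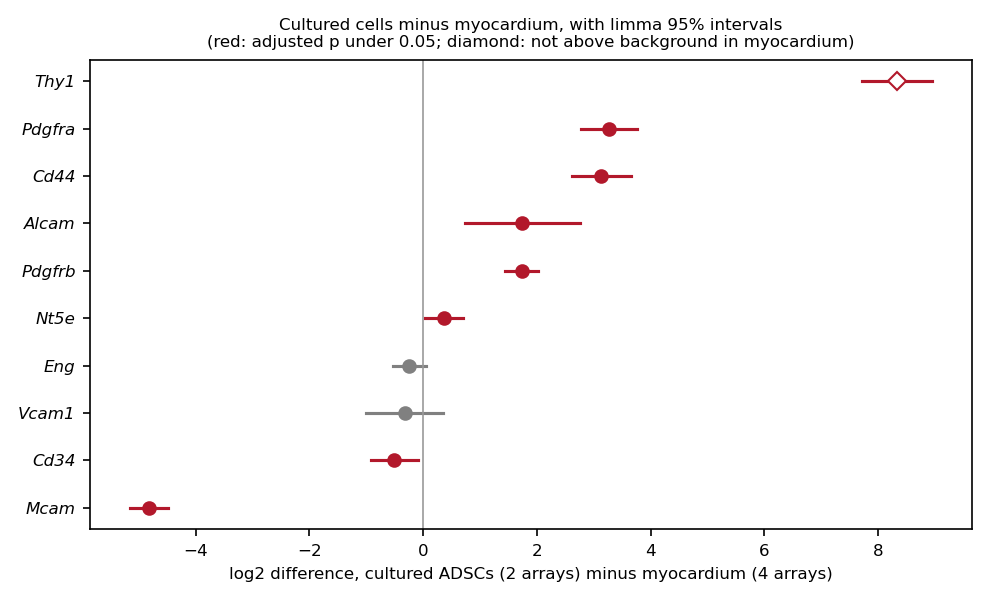
Log2 difference of the cultured cells (2 arrays) minus myocardium (4 arrays) for each member (points) with its limma 95% interval (lines); red marks an adjusted p under 0.05. Thy1 (8.33, drawn as a diamond because its probe was not well above background in tissue), Pdgfra (3.27) and Cd44 (3.13) stand to the right, and Mcam (-4.82) to the left, of 0.

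Thy1 encodes a glycolipid-anchored cell surface protein of fibroblasts, neurons and T cells. Its level was 0.82 in labelled and 0.93 in unlabelled cells, against -7.67 and -7.69 in the treated pair, -6.89 in PBS and -7.58 in sham tissue. The probe was well above background on both cell arrays and on no tissue array. Its signal was 4626 in labelled and 4489 in unlabelled cells, against 4.03 to 9.43 in tissue. Thy1 was therefore at least 162-fold higher in the cells on this scale (limma log2 difference 8.33, adjusted p = 1.69e-06). It entered the test through the cell arrays alone, so that p-value compares cell signal with background and adds nothing to the bound. With normexp background correction the log2 difference was 4.77, a smaller fold than that bound, and the call held.

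Nt5e, the enzyme that turns AMP into adenosine outside the cell, had a level of -1.13 in labelled and -1.05 in unlabelled cells. In tissue it was -1.55 and -1.43 in the treated pair, -1.60 in PBS and -1.26 in sham. The 2 cell values lay above all 4 tissue values, by a small margin over sham. The limma difference was 0.37 (1.29-fold, 95% interval 0.04 to 0.70, adjusted p = 0.0499), and leaving out any array but sham ended the call, at differences of 0.32 to 0.41 (adjusted p between 0.0861 and 0.193). A fit with 5 group means ended it too (0.36, adjusted p = 0.0844).

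Eng, a co-receptor for TGF-beta and BMP ligands that is abundant on endothelium, had levels of -0.13 in labelled and 0.01 in unlabelled cells. The tissue levels were 0.11 and 0.32 in the treated pair, 0.18 in PBS and 0.12 in sham, just above both cell values. The difference of -0.25 (95% interval -0.54 to 0.05) did not pass the limma test (adjusted p = 0.115), and its sign turned to 0.06 when each array was scaled to its median instead.

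Cd34, a sialomucin of haematopoietic progenitors, endothelium and fresh adipose stroma, had levels of -2.91 in labelled and -3.08 in unlabelled cells. Tissue levels were -2.69 and -2.57 in the treated pair, -2.52 in PBS and -2.18 in sham, all above both cell values. Cd34 stayed well above background on both cell arrays, at signals of 347 and 279. It was 1.42-fold lower in the cells (log2 difference -0.51, limma adjusted p = 0.0371). That call was lost with median scaling (-0.20, adjusted p = 0.332), quantile normalization (0.125), the deposited table (0.105) or without the PBS, treated replicate 3, unlabelled or labelled array (0.0581 to 0.176).

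The 2 PDGF receptors were both higher in the cells. Pdgfra, the receptor of most PDGF dimers on fibroblasts and progenitors, had levels of 4.43 in labelled and 4.44 in unlabelled cells, against 0.90 and 0.93 in the treated pair, 1.42 in PBS and 1.42 in sham tissue. It was 9.65-fold higher in the cells (log2 difference 3.27 ± 0.20 SE, limma adjusted p = 2.93e-05), and 2.67% of tested features had a larger positive difference. Its probe was printed 10 times on each array, and those spots had a log2 SD of 0.05 to 0.12. Pdgfrb, the receptor of PDGF-B homodimers on mural cells, had levels of 2.69 in labelled and 2.60 in unlabelled cells. In tissue it was 0.79 and 0.89 in the treated pair, 1.01 in PBS and 0.98 in sham, and the groups did not overlap. Pdgfrb was 3.32-fold higher in the cells (1.73 ± 0.12 SE, limma adjusted p = 4.23e-05).

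Cd44, the receptor for hyaluronan and osteopontin, had levels on its brightest probe of 2.52 in labelled and 2.52 in unlabelled cells. In tissue the levels were -0.89 and -0.79 in the treated pair, -0.18 in PBS and -0.59 in sham. The cells were 8.76-fold higher by this probe (3.13 ± 0.21 SE, limma adjusted p = 4.23e-05). The 4 probes of the gene, all carrying the same accession, did not give 1 answer. Probe A_64_P130995, well above background on all 6 arrays, differed by -0.18 between cells and tissue. Probe A_64_P130999 was higher by 2.01 in the cells and was well above background on 2 of the 4 tissue arrays, and A_64_P280765, above background on both cell arrays and on none of the tissue arrays, was at least 3.85-fold higher. The brightest probe and 2 of the others were single spots, and their positions in the gene were not analysed here. Averaged over the 4 probes, those not above background in tissue included, the difference was 1.93 (limma adjusted p = 0.000176).

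**Figure D3:**
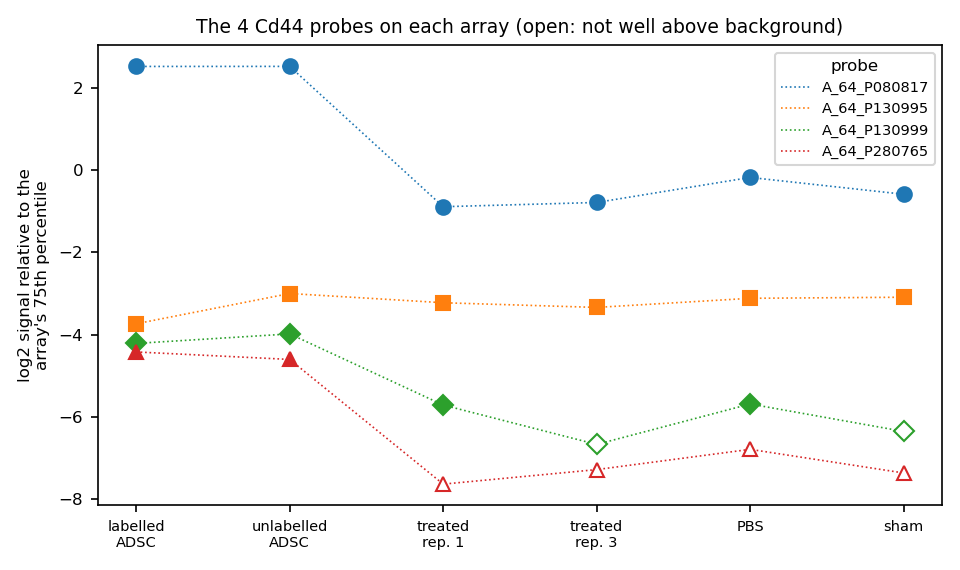
Levels of the 4 Cd44 probes on each array (y axis, log2 signal relative to the array's 75th percentile; open symbols are not well above background; dotted lines join 1 probe). On the tissue arrays the other probes are lower than on the cell arrays, while A_64_P130995 stays between -3.74 and -3.00 on all 6.

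Alcam, an adhesion molecule that binds itself and CD6, had levels of -0.29 in labelled and 0.43 in unlabelled cells. Tissue levels were -1.86 and -1.68 in the treated pair, -0.86 in PBS and -2.32 in sham, so both cell arrays lay above every tissue array and the tissue arrays differed widely. The cells were 3.35-fold higher (1.75 ± 0.42 SE, limma adjusted p = 0.0102), a call that was lost without the unlabelled array (1.39, adjusted p = 0.0759).

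Vcam1, the ligand of integrin VLA-4 on activated endothelium and marrow stroma, had levels of -1.40 in labelled and -1.12 in unlabelled cells. In tissue it was -0.96 and -1.22 in the treated pair, -0.33 in PBS and -1.22 in sham, and the cell and tissue values overlapped. The difference of -0.33 (95% interval -1.01 to 0.35) did not pass the limma test (adjusted p = 0.332).

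Mcam, an adhesion receptor of endothelium and pericytes, went the other way. Its level was -3.51 in labelled and -3.27 in unlabelled cells, against 1.32 and 1.58 in the treated pair, 1.46 in PBS and 1.36 in sham tissue. Signal stayed well above background in the cells, at 229 and 245, against 1983 to 3186 on the tissue arrays. Mcam was 28.2-fold lower in the cells (-4.82 ± 0.14 SE, limma adjusted p = 1.27e-06), and 3.42% of tested features had a more negative difference. Of all tested features, 35.6% were called lower in the cells. Beside Mcam, all 9 endothelial markers were called lower. Of these, Esam, an endothelial adhesion molecule, was at least 271-fold lower and Emcn, endomucin, at least 149-fold lower, and the list's summed signal was 1.29 and 0.93 times the 75th percentile in labelled and unlabelled cells, against 26.2 to 31.1 times in tissue. Of 10 pericyte and smooth muscle markers, 7 were lower, with Rgs5, a regulator of G-protein signalling in pericytes, at least 410-fold lower. The other 3 (Acta2, Tagln and Cnn1) were higher. Of these, Cnn1, calponin, was well above background on both cell arrays but on 1 of 4 tissue arrays, so that its size of difference is not measured, and Acta2 and Tagln were chosen for mention after their values were seen. The part of these cell types in the Mcam difference was not tested.

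The comparison of labelled with unlabelled cells asks what 124I-HIB labelling did to the cells, and each member lay within 2-fold between the 2 arrays. With 1 array on each side there is no test. The largest difference was that of Alcam, whose signal was 2135 in labelled and 3171 in unlabelled cells (log2 difference -0.72), followed by Vcam1 (-0.28) and Mcam (-0.24). Thy1 differed by -0.10, Eng by -0.14, Nt5e by -0.08, Pdgfra by -0.01 and Cd44 by -0.002, while Pdgfrb (0.09) and Cd34 (0.17) were slightly higher in labelled cells. Thus 0 of the 10 members were 2-fold apart, where 1.02% of 18271 measured features were. The member median was -0.09 against -0.04 over all measured features. For Alcam, 2.12% of features had a more negative difference. The Cd44 probe A_64_P130995, unlike the brightest one, differed by -0.74 between labelled and unlabelled cells.

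Between the tissue arrays the question is whether infarcted myocardium that received the cells differs in these genes from infarcted myocardium that received buffer, or from sham tissue. By limma no member passed in either comparison. Over all features the count at an adjusted p under 0.05 was 0 (0% of 19607) for treated against PBS, with 1844 at an unadjusted p under 0.05, and 0 (0%) for treated against sham, with 1848. The fit has 1 residual degree of freedom, from the treated pair. Among features measured on the arrays compared, 1.23% were 2-fold apart in both treated arrays against PBS, 0.944% against sham and 3.54% between PBS and sham. The 2 treated comparisons share the treated arrays, and the PBS array enters both treated against PBS and PBS against sham. The treated arrays themselves were 2-fold apart for 1.37% of measured features.

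Against PBS, 7 of the 9 measured members were lower in treated myocardium and 2 were higher, with a median of -0.17 against 0.01 over all measured features. Of all 17338 measured features, 51.5% were higher in treated myocardium. Alcam averaged -1.77 ± 0.13 in treated myocardium (SD, n = 2) and -0.86 in PBS, a difference of -0.91 (limma adjusted p = 0.396). Vcam1 averaged -1.09 ± 0.19 in treated myocardium and -0.33 in PBS, a difference of -0.76 (limma adjusted p = 0.475). Cd44 (-0.66, adjusted p = 0.465) and Pdgfra (-0.51, adjusted p = 0.511) were lower in both treated arrays as well, and the remaining members lay between -0.17 and 0.11. None of the 9 was 2-fold apart in both treated arrays.

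Against sham, 5 of the 9 members were lower in treated myocardium and 4 were higher, where 44.1% of 17052 measured features were higher, so the split is near the background. Pdgfra differed by -0.51 (limma adjusted p = 0.524) and Cd34 by -0.45 (adjusted p = 0.551). Alcam was higher by 0.55 (adjusted p = 0.529), Vcam1 by 0.13, and Eng and Mcam by 0.09 each. PBS tissue, set against sham, had 1 of 9 measured members 2-fold apart, Alcam, with a signal of 617 in PBS and 155 in sham and a log2 difference of 1.46 (2.75-fold). Vcam1 was 1.86-fold higher in PBS (0.89) and Cd44 1.33-fold (0.41), while Nt5e (-0.34) and Cd34 (-0.35) were lower. For Alcam, 0.817% of features had a larger positive difference between PBS and sham, and for Vcam1 2.78% did. These are single arrays and carry no test.

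Markers of other cell types moved on the same PBS array. Msln, mesothelin of the serous lining, had levels of -6.16 and -5.94 in the treated pair, 0.94 in PBS and -6.80 in sham tissue. Upk1b, a uroplakin also expressed by mesothelium, had levels of -6.31 and -6.43 in the treated pair, -0.10 in PBS and -7.14 in sham. Krt19, a keratin, had levels of -8.06 and -7.28 in the treated pair, -2.79 in PBS and -7.46 in sham. Adipoq, the fat hormone adiponectin, was at -8.17 and -7.88 in the treated pair, -2.66 in PBS and -7.78 in sham. Of the tissue arrays, Krt19 and Adipoq were well above background on the PBS array only. All 4 genes were thus highest in PBS among the tissue arrays, and Krt19 and Adipoq were chosen for mention after their values were seen. Of the 3 adipocyte genes measured on both arrays, 1 was higher and 2 were lower in PBS than in sham, with a median of -0.32. The list's other genes on the array, Adipoq apart, were not well above background on any tissue array. Whether the list as a whole moved with Adipoq therefore cannot be read from it. The summed signal of the 4 mesothelial markers on the array was 0.39 and 0.45 times the 75th percentile in the treated pair, 3.36 times in PBS and 0.41 times in sham, and all 4 were well above background in PBS, against 1 and 2 in the treated pair and 1 in sham. Wt1, a mesothelial transcription factor, varied little (-1.47 and -1.26 in the treated pair, -1.45 in PBS and -1.37 in sham). All 9 fibroblast markers were also lower in treated than in PBS tissue (median -0.36) and higher in PBS than in sham (median 0.37). Over all measured features, 51.5% were higher in treated than in PBS tissue and 44.3% were higher in PBS than in sham. Both fibroblast counts rest on the same PBS array. The part of these cell types in the Alcam, Vcam1 and Cd44 differences was not tested. Without the PBS array, Alcam stood 2.02 higher in cells than in tissue (limma adjusted p = 0.00236) and Vcam1 0.13 lower (adjusted p = 0.51).

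**Figure D4:**
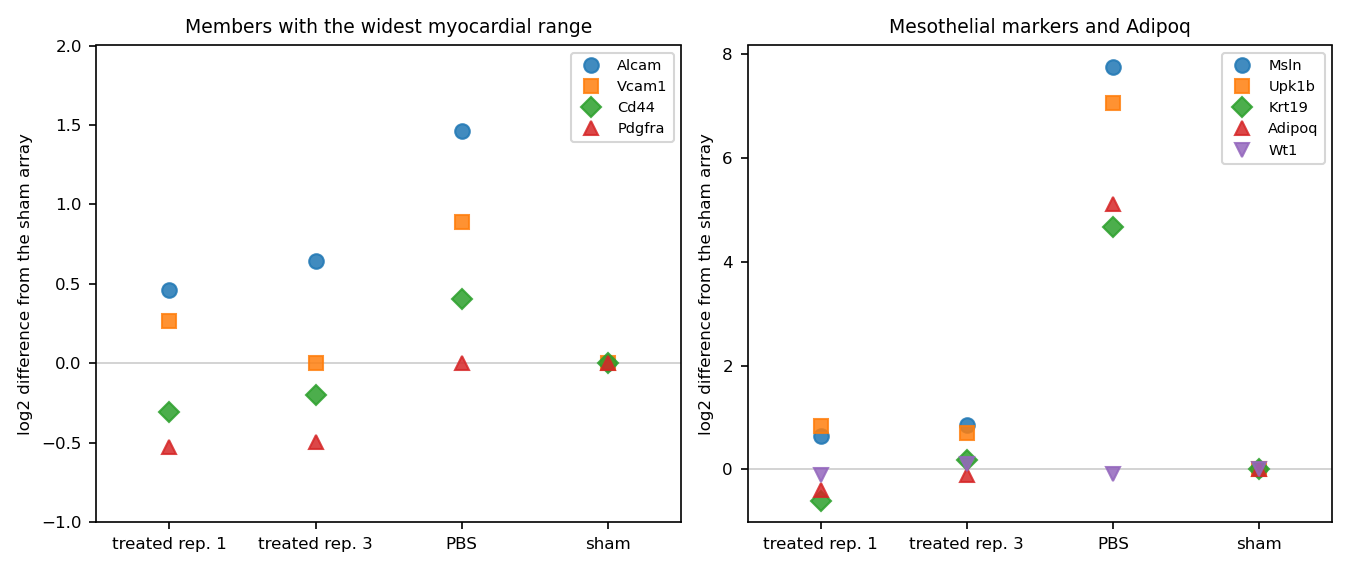
Log2 difference of each tissue array from the sham array (y axis) for 4 members (left) and for mesothelial markers with Adipoq (right); one point per array, sham at 0 by construction. Alcam and Vcam1 are highest on the PBS array, where Msln, Upk1b, Krt19 and Adipoq stand far above the other tissue arrays and Wt1 does not.

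The partners of the members in their pathways were followed through the same cell against tissue comparison, in which 32.9% of all tested features were called higher and 35.6% lower. Counts in lists this small are descriptions, and those of the endoglin, CD44 and adenosine lists lie near or below that background of 68.5% called. Of the PDGF ligands, Pdgfd (2.87) and Pdgfc (at least 8.83-fold) were higher in the cells, Pdgfb was at least 9.38-fold lower, and Pdgfa, at 0.02, did not pass the test. The endoglin list holds TGF-beta and BMP ligands, their receptors and targets. Of its 13 genes 5 were higher in the cells, including the ligands Tgfb2 (1.98) and Tgfb1 (1.50), and 4 were lower, including Bmp4 (-1.71) and the BMP target Id1 (-1.48).

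In the CD44 and hyaluronan list, 3 of 10 tested genes were higher in the cells and 2 lower. Vcan, the proteoglycan versican, differed by 4.73 and the hyaluronan synthase Has2 was at least 2.93-fold higher. The invariant chain Cd74, which CD44 accompanies as a receptor of the cytokine MIF, was lower (-9.44). Osteopontin (Spp1) differed by 1.50 without passing the test (limma adjusted p = 0.0606). Of the VCAM1, ALCAM and THY1 partners, 4 of 5 tested were lower and none higher. They were the integrin chains Itga4 (-2.79, well above background on 1 of 2 cell arrays) and Itgb7 (-1.75), and the ALCAM ligands Cd6 (-0.55) and L1cam (-0.71).

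Around Nt5e, 5 of 8 adenosine pathway genes were lower in the cells and 1 was higher. The ectonucleotidases Entpd2 (-3.59) and Entpd1 (at least 6.32-fold lower) were lower, as was the receptor Adora2a (-5.25), while Adora2b, the low-affinity adenosine receptor, was higher by 6.53. Of the 6 MCAM and CD34 partners tested, 3 were higher and 2 were lower. The higher ones were the galectins Lgals3 (5.01) and Lgals1 (2.75) and the MCAM ligand Wnt5a (1.72). Of the lower ones, Podxl, a sialomucin of the CD34 family, was at least 1304-fold lower. In the list of other stromal surface proteins, 21 of 27 tested genes were higher and 3 were lower. The highest were Mme (CD10, 6.42), Pdpn (podoplanin, 5.54), Cd55 (5.17) and Anpep (CD13, 4.96), and the lower ones were Dpp4, Cspg4 and Ngfr, named after their values were seen. The median of the measured genes of that list was 1.65, against 0.03 over all measured features.

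**Figure D5:**
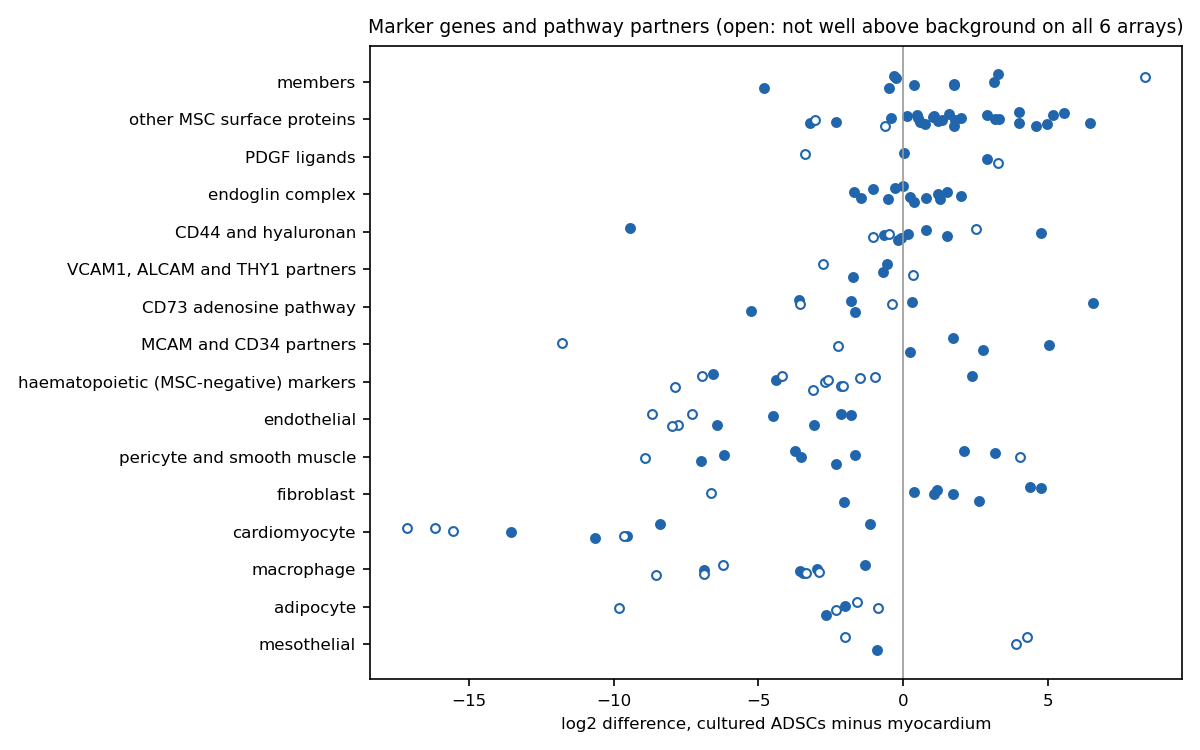
Log2 difference of cultured ADSCs minus myocardium (x axis) for each gene of the lists used (rows; vertical scatter within a row is for display). Filled points were well above background on all 6 arrays and open ones were not; cardiomyocyte, endothelial and macrophage markers lie to the left of 0 and most other stromal surface proteins to the right.

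The genes closest to each member in pattern were found among 9744 named genes well above background on all 6 arrays, by the root mean square distance of the 6 levels after removing each gene's mean. Pdgfrb was nearest to Uxs1 (distance 0.01) and Rack1 (0.04), and Pdgfra to Plp2 and Sec61b (0.12 each). Cd44 lay nearest to Anxa1 (0.07) and Fads1 (0.08), Mcam to Fam110d (0.06) and Steap4 (0.10), and Alcam to Slc39a8 (0.23) and Bnc2 (0.24). Vcam1 was nearest to Enah (0.12) and Itpr1 (0.13), Cd34 to Mrps26 and Gmeb2 (0.05 each), Eng to Polr2e and Nek9 (0.04 each), and Nt5e to Thrap3 (0.02) and Adprm (0.03). The points share 6 arrays and 1 scaling, and the distances are a description.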

How the data were processed

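Cy3-labelled cRNA was made with an Agilent kit from RNA isolated on Qiagen columns, per the labels' protocols. All 6 arrays lay on 1 slide in 1 scan, with cell and tissue arrays in different rows, so slide and scan could not be tested as batches. The authors deposited scanner intensity values, and the submitters' processing notes name Agilent Feature Extraction 11.0.1.1. A second deposited file holds log2 values (how it was made: not given in the sources used here). Its columns tracked log2 processed signal (r of 0.9998 or more), with medians of 9.67 in cell and 8.85 in tissue columns, and its scale across the 2 classes stays unknown. It was used as an alternative.

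From the intensities, control spots and 521 to 752 outlier spots per array were left out, spots of a probe were averaged, and log2 signals were taken relative to the array's 75th percentile. Names came from matching unversioned accessions to RefSeq genes (GRCr8, names and promoters only): 18355 of 30367 probes received 1 symbol and 12012 none. A probe whose accession matched several symbols was left without one. A gene's brightest probe stood for it, giving 27455 features. limma 3.58.1 (R 4.3.3; lmFit, eBayes, Benjamini-Hochberg over all tested features) compared cells with tissue (21177 features) and the 3 tissue groups in 1 fit (19607 features), and was tested on simulated data. Comparisons of single arrays were called at 2-fold with no test. For a bound, the dim side of the ratio was, on each array, the probe's own signal or the lowest signal of any probe well above background, whichever was higher.

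The members and lists were chosen with earlier results of these data known. Named genes are all members, up to 4 genes per list with the largest cell against tissue difference, and the 2 nearest patterns per member. Cd14, Pi16, Acta2, Tagln, Dpp4, Cspg4, Ngfr, Krt19 and Adipoq fall outside that rule and were chosen after their values were seen. Of 169 listed genes 153 were on the array. Figures were drawn with matplotlib 3.10.9.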

Additional observations from a re-analysis of the deposited data

How the results depend on the processing

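Thy1, Pdgfra, Cd44, Pdgfrb and Mcam kept their direction and call in the cell against tissue comparison under every alternative that gave a value. Members called ranged from 5 (without the unlabelled array) to 8 when 1 array was left out. Calls over all features split 6966 higher of 14502 as reported, 5868 of 16835 with normexp background correction, 8771 of 14756 with median scaling and 8119 of 14399 with quantile normalization, while the median of all features moved to -0.12, 0.33 and 0.15, against 0.03. Signs turned for Eng between cells and tissue (0.0561) and for Mcam in treated against PBS (0.0511) with median scaling, and for Pdgfrb in treated against sham (0.0383) with normexp. With normexp the limma calls were 67 for treated against PBS and 43 for treated against sham, and features 2-fold apart fell to 89 and 75, to 72 for labelled against unlabelled cells and to 235 for PBS against sham. A trended and robust spread gave 49 and 59 limma calls, a filter on all 6 arrays 10 and 19, and the deposited log2 values gave 2 for treated against sham. With 1 treated array left out, features 2-fold apart were 428 to 500 against PBS and 367 to 396 against sham, since 1 array then had to pass instead of 2; no member was called in any of these. The cause of the other changes was not tested. No paired analysis was possible because the groups share fewer than 2 replicate numbers.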

Other observations

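Several other genes of the lists stood highest on the PBS array among the tissue arrays. Those given here were picked for that pattern, and how many listed genes or features share it was not counted. Postn, periostin of activated fibroblasts, had levels of -4.41 and -4.06 in the treated pair, -2.58 in PBS and -4.08 in sham tissue. Tgfb2, a ligand of the receptor complex that endoglin joins, had levels of -2.68 and -3.03 in the treated pair, -2.13 in PBS and -3.96 in sham. Pdpn, a mucin-type surface protein of stromal and mesothelial cells, had levels of -0.50 and -0.05 in the treated pair, 0.64 in PBS and -0.59 in sham. All 9 cardiomyocyte markers were lower than sham in treated tissue (median -0.42) and in PBS tissue (median -0.47). These are values of single arrays, without a test for PBS against sham.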
